A study of Mus musculus with 2 samples.

Results

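Erythroid genes are those that developing red blood cells use to make haemoglobin, haem and their membrane skeleton, and 36 of them, given by name in a list, are considered here. Of the 36, 28 had a probe that the array annotation names, out of 16426 named genes on the arrays. No named probe was found for 8 listed genes, namely the globin genes Hba-a1, Hbb-b1, Hbb-b2, Hbb-y, Hbb-bh1 and Hba-x, the haemoglobin chaperone gene Ahsp and the RING finger gene Trim10, and these were not analysed here. The globins could therefore not be placed against the top of the signal range, and none of the 28 measured genes was read there on either array.

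RNA of MMP-14 KO mice, which lack a matrix-cleaving protease of the cell membrane, was set against wild-type (WT) RNA on 2 arrays read in 2 colours. The first array carried whole liver that its title places at P1, a postnatal day, and the design text at E18.5, before birth, a conflict that was not settled, with RNA of 2 MMP-14 KO livers pooled against RNA of 2 WT livers. The second carried cells of MMP-14 KO and of WT livers, titled E14 and given as E14.5 in the design text, sorted by flow cytometry for Dlk and against CD45, CD71 and Ter119, with 100000 cells from 3 livers per genotype. Below they are called the P1 liver array and the E14 Dlk+ cell array. Strain, sex and the nature of the deletion are not stated in the labels. KO RNA was labelled with Cy3 and WT RNA with Cy5 on both arrays, so a dye effect of a single gene and genotype cannot be told apart. With 1 array per comparison no test is possible, the spread between animals is unknown, and the number of arrays limits the precision. The spread between different probes of a gene serves as the only guide, with a pooled SD of the log2 ratio of 0.23 on the P1 liver array (119 genes) and 0.12 on the E14 Dlk+ cell array (117 genes). Each of the 28 erythroid genes had 1 probe.

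In the mouse, the fetal liver is the main site of red cell production before birth, and erythroid cells leave it as bone marrow takes over. Erythroid progenitors respond to erythropoietin through Epor. The transcription factors Gata1, Tal1 and Klf1 switch on the genes for haem synthesis, globins and the red cell membrane. CD71, the transferrin receptor encoded by Tfrc, and Ter119, a surface antigen associated with glycophorin A, mark erythroid cells, so the sort of the E14 cells was set to leave those cells out. In whole liver, fewer cells of a type and less RNA per cell cannot be told apart.

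Promoter windows are shown because the transcription factors above bind known letter patterns and the genes chosen lay at the low end of the P1 ratios or are standard erythroid genes. The windows run from 250 bases before to 50 after the start of the gene (RefSeq, GRCm38.p6), are printed 5′ to 3′ in the gene's direction, and were found for 20 of the 28 genes. Capitals mark matches, on either strand, to the GATA letters AGATAA or TGATAA and to the CACCC-type letters CCNCNCCC bound by factors of the Klf family. Where CACCC-type matches overlap they form 1 longer run of capitals. Tal1 has 2 windows. The first is printed for its GATA match, and the second, at chr4:115057561-115057860, holds 4 CACCC-type matches and no GATA match.
Klf1, chr8:84901732-84902031, + strand: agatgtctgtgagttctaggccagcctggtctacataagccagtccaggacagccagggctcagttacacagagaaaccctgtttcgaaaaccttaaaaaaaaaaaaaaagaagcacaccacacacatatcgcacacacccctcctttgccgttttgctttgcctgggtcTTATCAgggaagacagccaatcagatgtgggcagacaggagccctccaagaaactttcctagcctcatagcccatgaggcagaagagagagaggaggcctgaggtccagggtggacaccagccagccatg
Tal1, chr4:115056176-115056475, + strand: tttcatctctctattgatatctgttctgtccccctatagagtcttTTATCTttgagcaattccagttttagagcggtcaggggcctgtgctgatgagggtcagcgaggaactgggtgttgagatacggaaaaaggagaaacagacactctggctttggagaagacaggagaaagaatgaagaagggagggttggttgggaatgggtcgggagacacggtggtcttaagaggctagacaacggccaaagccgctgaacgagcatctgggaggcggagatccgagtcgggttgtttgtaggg
Rhd, chr4:134864286-134864585, + strand: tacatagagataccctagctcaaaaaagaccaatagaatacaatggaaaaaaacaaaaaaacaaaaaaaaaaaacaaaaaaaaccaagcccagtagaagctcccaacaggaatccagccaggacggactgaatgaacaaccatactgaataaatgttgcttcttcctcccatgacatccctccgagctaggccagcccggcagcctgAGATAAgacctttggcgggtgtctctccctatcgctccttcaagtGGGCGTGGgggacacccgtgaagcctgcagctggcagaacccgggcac
Alas2, chrX:150547167-150547466, + strand: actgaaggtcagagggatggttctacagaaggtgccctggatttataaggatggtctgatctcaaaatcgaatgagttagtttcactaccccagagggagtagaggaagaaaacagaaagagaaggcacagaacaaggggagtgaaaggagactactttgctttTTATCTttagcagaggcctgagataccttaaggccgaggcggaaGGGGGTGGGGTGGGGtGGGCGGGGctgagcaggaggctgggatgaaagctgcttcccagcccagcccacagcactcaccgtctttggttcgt
Epor, chr9:21963527-21963826, - strand: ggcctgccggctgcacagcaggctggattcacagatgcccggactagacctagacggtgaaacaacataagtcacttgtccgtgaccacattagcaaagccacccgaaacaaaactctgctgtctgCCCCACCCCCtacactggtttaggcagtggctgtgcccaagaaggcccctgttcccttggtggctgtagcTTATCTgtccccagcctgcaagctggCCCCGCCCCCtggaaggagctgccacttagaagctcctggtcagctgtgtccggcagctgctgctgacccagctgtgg

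The GATA letters stood in a window of 11 of these 20 genes (55.0%), against 21.0% of 27025 genes with such windows. CACCC-type letters stood in 15 of 20 (75%), against 51.9%. The core letters TGAGTCA of the Nfe2 site stood in 1 of 20 (5%, Kel), against 5.95%. A match is a string of letters and not a bound site, and no match says only that the letters are not in this window.

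Signals are scanner readings on a linear scale. A channel was called detectable above the mean of the blank spots plus 2 SD, which lay at 87.0 for KO and 50.5 for WT on the P1 liver array, and at 85.1 for KO and 44.3 for WT on the E14 Dlk+ cell array. The Cy3 channel read brighter throughout, with a median KO over WT signal of 1.65 on the P1 liver array and 2.09 on the E14 Dlk+ cell array. Signals and their sums are given as read, and KO and WT are compared by the normalised log2 ratios of KO over WT, which can point the other way from the signals. As a check of the labels, Mmp14 itself had log2 ratios of -1.30 on the P1 liver array and -1.13 on the E14 Dlk+ cell array. Whether its probe lies in the deleted part is not stated in the labels. On the P1 liver array lung epithelial genes were found in the WT channel, with values given below.

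In P1 liver, the erythroid genes were lower in KO than in WT almost throughout. All 28 were detectable in both channels, 27 had a log2 ratio below 0, and the median was -0.58, against -0.0015 for all 12728 named genes detectable in both channels. At least 1.5-fold lower were 14 of the 28, against 4.12% of all genes, and none was at least 1.5-fold higher, against 2.84% of all genes. At least 2-fold lower were 4, Car2, Rhd, Klf1 and Tal1, against 1.45% of all genes. Among the 3780 genes within the interquartile intensity range of the erythroid genes, 6.27% were at least 1.5-fold lower, against 8 of the 14 erythroid genes in that range. The authors' deposited table also had 27 of the 28 below 0, with a median of -0.64. The size depended on the scaling: with each array centred on its median in place of loess, which follows the dye ratio along the intensity range, the median was -0.33 and 6 genes were at least 1.5-fold lower. Under that setting 25 of the 28 were below 0, with Tfrc, Fech and Rhag above it, and 26 lay below the median of all genes. With the local background in the correction 24 were below 0, with Tfrc, Blvrb, Cpox and Nfe2 above it. The genes at least 1.5-fold lower were then Tal1, Rhd, Tspo2, Car2, Alad, Urod, Ppox, Slc25a37 and Icam4, so that the calls of Klf1, Epor, Blvrb, Slc4a1 and Car1 ended. Under median centring they were Klf1, Tal1, Rhd, Tspo2, Car1 and Car2, and none was 2-fold lower.

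**Figure D1:**
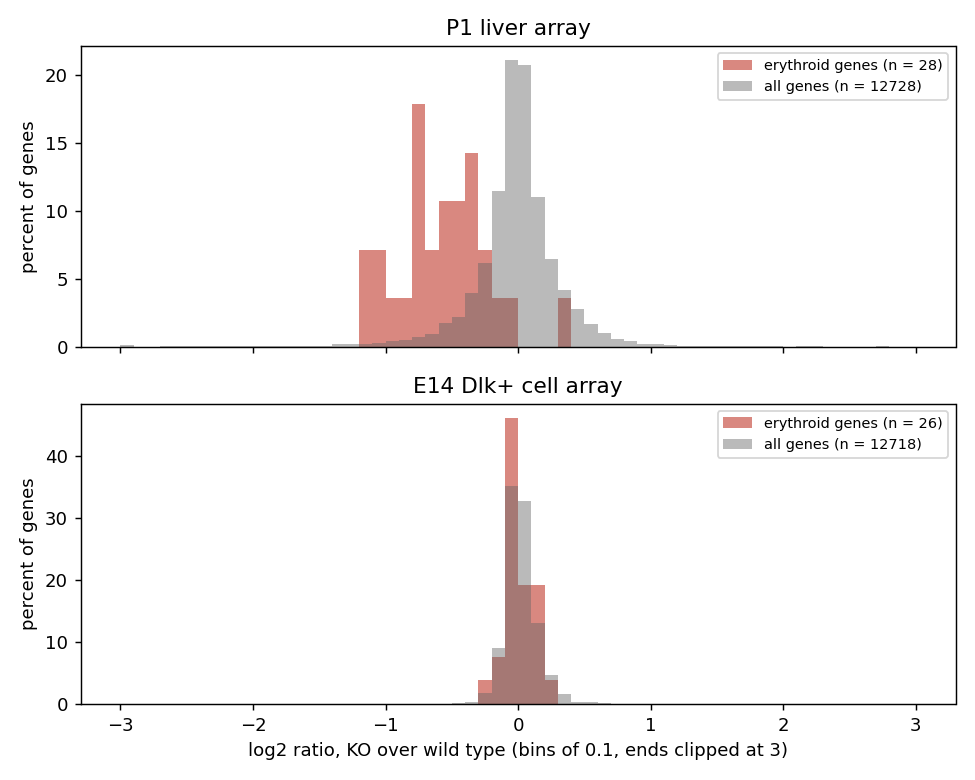
Percent of genes (vertical axis) by log2 ratio of KO over WT in bins of 0.1 (horizontal axis, values beyond 3 either way counted in the end bins), for the erythroid genes in red and all named genes in grey, detectable in both channels. On the P1 liver array the 28 erythroid genes lie mostly left of the grey peak, and on the E14 Dlk+ cell array 26 of them lie within it.

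The transcription factors and the erythropoietin receptor were all below 0 in P1 liver. Klf1, the Krüppel-like factor of red cells that activates adult beta-globin, had a signal of 192 in the KO and 279 in the WT channel. Its log2 ratio was -1.10, and -1.51 in the authors' deposited table. It was -0.57 with the local background in the correction and -0.93 under median centring. Tal1, a helix-loop-helix factor needed for blood formation, had signals of 316 in KO and 431 in WT and a log2 ratio of -1.01. The signals of both were lower in the KO channel, although that channel read brighter for most probes. Epor had signals of 407 in KO and 417 in WT with a ratio of -0.59, just inside the 1.5-fold mark. Gata1, the zinc finger factor that acts on most erythroid genes, lay just outside it at -0.57, with signals of 248 in KO and 255 in WT. Nfe2, the larger subunit of a globin locus activator, was nearest to 0 of the 5 at -0.39, with 279 in KO and 253 in WT. With the local background used in the correction, Nfe2 turned to 0.31.

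Haem and iron genes had a median of -0.70 in P1 liver, with 9 of 10 below 0. At least 1.5-fold lower were 6, against 4.12% of all genes. Alas2, the first and erythroid-specific step of haem synthesis, had signals of 1234 in KO and 1161 in WT and a ratio of -0.54. Its ratio was -0.28 with the local background in the correction, -0.10 under median centring and 0.05 without normalisation, so its size rests on the processing. The later enzymes of the pathway are made in all cells that make haem, hepatocytes included. Among them Alad, which forms porphobilinogen, stood at -0.76 with signals of 956 in KO and 1053 in WT, Urod, which decarboxylates uroporphyrinogen, at -0.78, and Ppox, which forms protoporphyrin, at -0.80 with signals of 447 in KO and 523 in WT. Cpox, the enzyme before Ppox, stood nearer 0 at -0.20 (0.32 with the local background in the correction), and Fech, which inserts iron, at -0.30. Slc25a37, the mitochondrial iron importer mitoferrin 1, had a ratio of -0.76 with signals of 1151 in KO and 1257 in WT. Tspo2, an erythroid relative of the translocator protein gene listed on the array as Bzrpl1, had -0.85 with signals of 230 in KO and 285 in WT. Blvrb, a biliverdin reductase abundant in red cells, had -0.65, but 0.38 with the local background in the correction, so its direction rests on that choice. Under median centring only Tspo2 of the 10 genes stayed at least 1.5-fold lower, at -0.66. Ppox then stood at -0.48, Alad at -0.34, Urod and Slc25a37 at -0.32, Blvrb at -0.20, Cpox at -0.04 and Fech at 0.09.

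Tfrc was the exception to the lower values. The transferrin receptor gene, which takes up iron and is highest in dividing erythroblasts, had a signal of 2474 in KO and 1229 in WT. Its log2 ratio was 0.36, with 0.58 in the authors' deposited table, and it was the only erythroid gene above 0 on the P1 liver array. This is more than the SD between probes of a gene but under 1.5-fold. Under median centring it was 0.83, and 1.17 with the local background used in the correction. Other cells also make Tfrc, and what share of its signal came from erythroid cells was not tested.

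The 11 membrane genes were all below 0 in P1 liver, with a median of -0.46. Rhd, a Rhesus blood group gene, had a signal of 451 in KO and 666 in WT and a ratio of -1.15, the lowest of the group. Slc4a1, the band 3 anion exchanger, had 849 in KO and 933 in WT and a ratio of -0.75. Slc4a1 stood at only -0.045 with the local background in the correction, at -0.10 with it subtracted and at -0.34 under median centring. Icam4, the Landsteiner-Wiener adhesion molecule, was the third at least 1.5-fold lower, at -0.63 with 176 in KO and 186 in WT. Rhag, the partner of Rhd in the membrane, stood at -0.02 with 142 in KO and 96.9 in WT. Those signals are only 1.63 times the threshold in KO and 1.92 times in WT, so the unlike ratios of the pair rest on a dim reading. With the local background subtracted Rhag was at -0.45 and Rhd at -1.64. Epb4.2 (now Epb42, protein 4.2, which joins band 3 to the skeleton) was at -0.49, Ermap, an erythroblast membrane protein, at -0.36, and Kel, the Kell blood group endopeptidase, at -0.36.

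The remaining skeleton genes were dim in P1 liver. Sptb (beta spectrin, listed on the array as Spnb1) had signals of 108 in KO and 96.3 in WT. Ank1, which anchors spectrin to band 3, had 98.5 in KO and 65.7 in WT. Add2, beta adducin at the spectrin junctions, had 113 in KO and 101 in WT. Epb4.9 (now Dmtn, the actin bundler dematin) had 97.5 in KO and 72.9 in WT. Their log2 ratios ran from -0.48 for Sptb to -0.12 for Ank1. An offset of 50 was added to every signal, which pulls ratios of dim genes towards 0, and the authors' deposited table gives -1.35 for Sptb, -1.21 for Add2, -1.17 for Dmtn and -0.58 for Ank1. Near the blank threshold neither set of ratios says much about size.

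The carbonic anhydrase genes, whose enzymes hydrate carbon dioxide in red cells, were low in KO as well. Car2 had a signal of 2606 in KO and 3628 in WT and the lowest log2 ratio of all 28 genes, -1.16. Car1 had 309 in KO and 411 in WT and a ratio of -0.97. Car2 is also made in cells outside the blood, while Car1 is largely a red cell and gut gene.

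**Figure D2:**
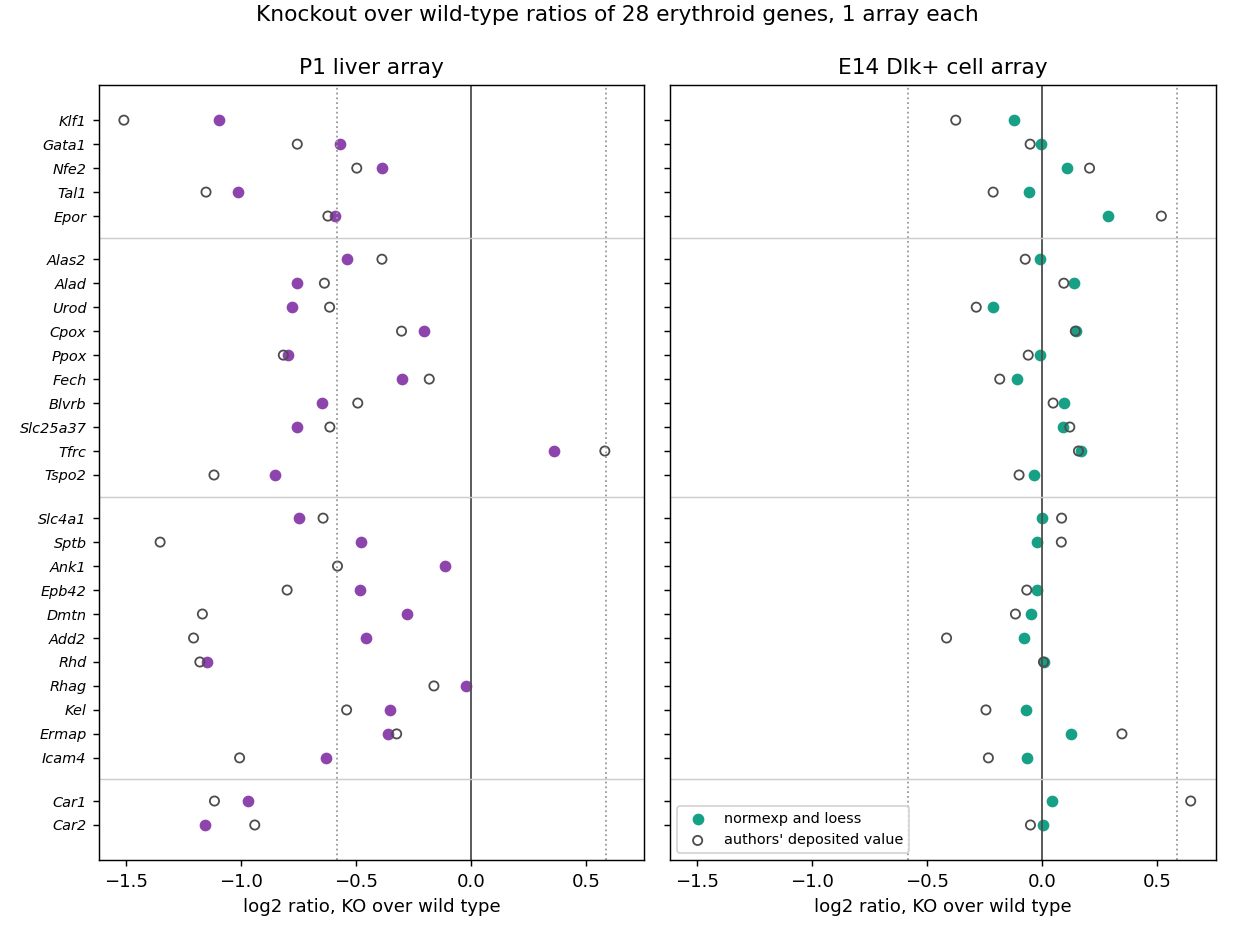
Log2 ratio of KO over WT (horizontal axis) for each of the 28 genes (rows, grouped from the top as regulators, haem and iron, membrane, and carbonic anhydrases), P1 liver left and E14 Dlk+ cells right. Filled points are normexp and loess values, open points the authors' deposited values, and dotted lines mark 1.5-fold. In P1 liver all filled points except Tfrc lie left of 0, and in E14 Dlk+ cells all lie between -0.21 and 0.29.

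In E14 Dlk+ cells the erythroid genes did not lean either way. Detectable in both channels were 26 of the 28, with 11 above and 15 below 0, a median of -0.01 and a range from -0.21 (Urod) to 0.29 (Epor). None was at least 1.5-fold lower or higher, where 0.220% of all 12718 genes were lower and 0.307% higher, so a count of 0 is near the background. Epor had signals of 195 in KO and 73.7 in WT, and in the authors' deposited table its ratio was 0.52. Klf1 had 130 in KO and 67.2 in WT with a ratio of -0.12, and Rhd 124 in KO and 59.3 in WT with 0.01. Slc4a1 had 103 in KO and 50.6 in WT and a ratio of -0.0019. Klf1, Rhd and Slc4a1 were read about 2 times as bright in KO as in WT, as most probes on this array were. The blank spots differed in the same way, with means of 80.7 in KO and 42.3 in WT, and these genes read close to that level. Background correction, the offset and loess all act on this common difference.

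Red cell membrane genes were near the detection limit in the sorted E14 cells, while general haem enzymes were well above it. Of the 11 membrane genes none reached 2 times the threshold in KO or in WT. Of the 5 regulators, 1 did in KO and 0 in WT. Among all 16423 named genes with a ratio on this array, 6464 reached it in both channels. Rhag was detectable in neither channel, at 85.1 in KO and 42.6 in WT, and Ank1 in KO only, at 90.5 against 43.7 in WT. For such dim genes the E14 ratio carries little information. Of the 10 haem and iron genes, 8 reached 2 times the threshold in KO and 7 in WT. Blvrb stood at 15.9 times the threshold in KO and 11.9 times in WT, and Alad at 14.1 times in KO and 10.2 times in WT. Alas2, the erythroid-specific enzyme, stood at 1.73 times in KO and 1.58 times in WT. Tfrc transcript, whose protein CD71 the sort selected against, was still at 518 in KO and 196 in WT, or 6.08 and 4.43 times the threshold of KO and WT. Because the sort used this protein, the Tfrc level in these cells is given as a description only. Of the hepatocyte and hepatoblast markers, all 14 were detectable in KO and 13 in WT, and Dlk1, the antigen of the sort, read 11869 in KO and 4971 in WT.

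**Figure D3:**
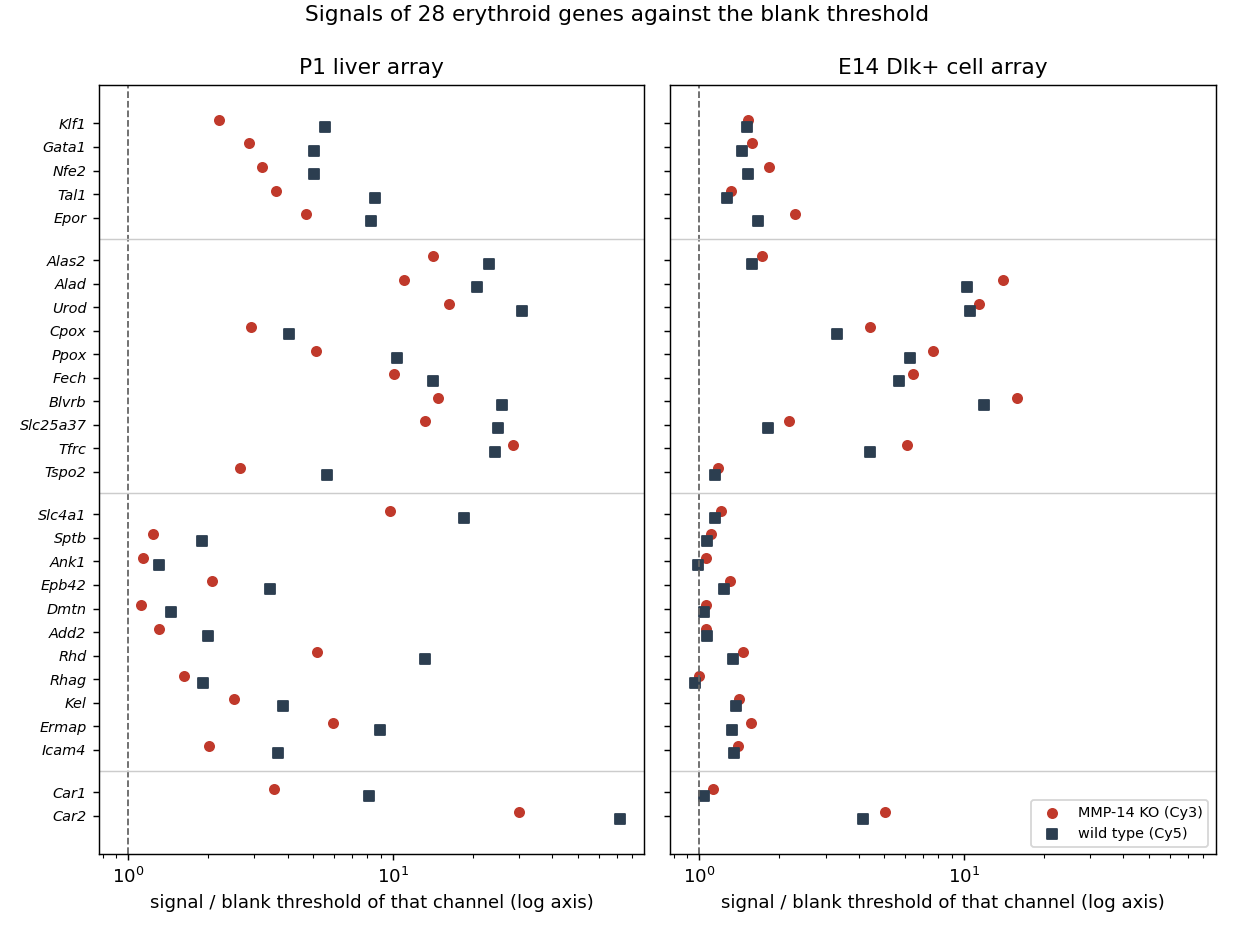
Signal of each gene divided by the blank threshold of its channel (horizontal log axis), KO in red circles and WT in dark squares, P1 liver left and E14 Dlk+ cells right. The dashed line marks the threshold: in E14 Dlk+ cells the 11 membrane genes crowd at this line, while Alad, Urod and Blvrb stand near 10 times it.

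Levels in P1 liver were higher than in E14 Dlk+ cells for most erythroid genes in both genotypes. The comparison sets channels of the same dye on 2 arrays against each other, after quantile normalisation of the average intensities. Stage, sorting and array cannot be told apart in it. The spread between probes of a gene was wide, with a pooled SD of 0.59 on the log2 scale for KO channels and 0.54 for WT channels. In the KO channels 27 genes were detectable on both arrays, with 25 higher in P1 liver and a median log2 difference of 1.10, against -0.05 for all genes. At least 2-fold higher were 15 of the 27, against 6.16% of all 12754 genes, and none was at least 2-fold lower, against 5.96%. In the WT channels all 26 genes detectable on both arrays were higher in P1 liver, with a median of 1.65, against -0.06 for all genes. There 21 of 26 were at least 2-fold higher, against 6.52% of all 12346 genes, and none at least 2-fold lower, against 4.73%.

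Slc4a1 and Alas2 differed most between whole liver and sorted cells in KO. Slc4a1 read 849 in P1 liver and 103 in E14 cells in the KO channels, a log2 difference in level of 3.35, and 933 in P1 liver and 50.6 in E14 cells in the WT channels, a difference of 4.09. Alas2 differed by 3.35 in KO and 3.88 in WT, Slc25a37 by 2.91 in KO and 3.76 in WT, and Car2 by 2.88 in KO and 4.04 in WT. The smallest of these differences, that of Car2 in KO, is 7.38-fold. Rhag, undetectable in E14 cells, was at least 1.87-fold higher in P1 liver in KO and at least 1.85-fold higher in WT. Ank1 was at least 1.26-fold higher in WT. Each bound sets the P1 level against the lowest detectable level of that channel on the E14 array. Where the gene's own E14 level was higher than that, as for Rhag in KO and Ank1 in WT, it was used instead.

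Some general haem enzymes differed little between the arrays in KO, as did the dim skeleton genes Ank1 and Dmtn. Cpox had a log2 difference in level of -0.24 in KO and 0.12 in WT, Ppox -0.12 in KO and 0.67 in WT, and Alad 0.12 in KO and 1.01 in WT. The 2 KO values below 0 were the only ones of all the erythroid genes. Among the regulators, Tal1 differed by 1.77 in KO and 2.72 in WT, Epor by 1.35 in KO and 2.23 in WT, and Klf1 by 0.78 in KO and 1.75 in WT. The KO and WT differences are tied to the KO over WT ratios of the arrays by construction, since the KO minus WT gap between these differences is the P1 ratio minus the E14 ratio.

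**Figure D4:**
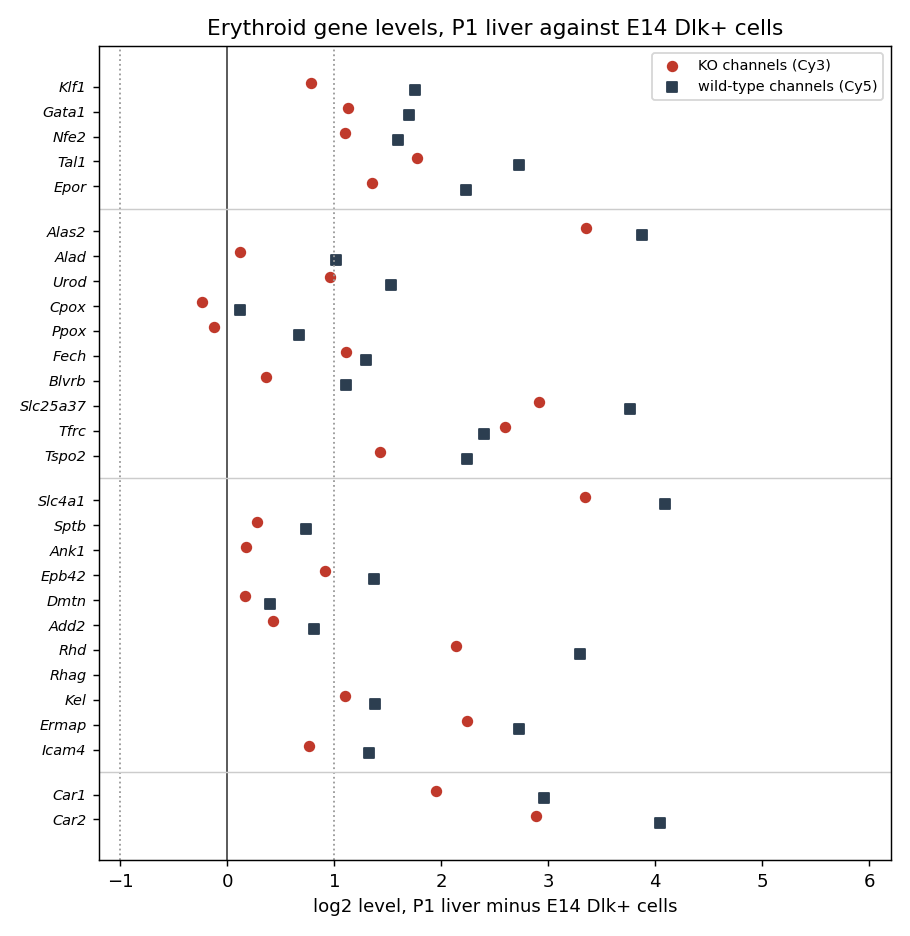
Log2 level in P1 liver minus that in E14 Dlk+ cells (horizontal axis) for each gene, KO channels in red circles and WT channels in dark squares, with dotted lines at 2-fold. Slc4a1 lies at 3.35 in KO and 4.09 in WT, Cpox at -0.24 in KO and 0.12 in WT, and Rhag has no point because it was not detectable in E14 Dlk+ cells.

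Erythroid genes outside the 28 were mostly below 0 in P1 liver, with a median nearer 0. A wider list of transcription, haem and iron, membrane and late red cell genes had 51 members detectable in both P1 channels, with a median log2 ratio of -0.14, 39 below 0, 8 lower by 1.5-fold or more and 1 higher by as much, where 4.12% of all genes were lower and 2.84% higher. Hemgn, a nuclear protein of erythroid progenitors, stood at -1.11, with 552 in KO and 787 in WT. Lmo2, which bridges Tal1 and Gata1, was at -0.66, and Lyl1 and Cbfa2t3 of the same complexes were at -0.64 and -0.61. Aqp1, a water channel of red cells that is also strong in endothelium, was the lowest at -1.36, followed among membrane genes by Tmcc2 at -0.70 and Gypc (glycophorin C) at -0.61. Prdx2, a peroxiredoxin of red cells, was at -0.65. In E14 Dlk+ cells the same list had 50 members detectable in both channels, a median of -0.02 and none at 1.5-fold in either direction.

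Haem and iron genes of the wider list lay on both sides of 0 in P1 liver. Ireb2, an iron regulatory protein that stabilises Tfrc transcript when iron is low, had a ratio of 0.98 in P1 liver, with signals of 301 in KO and 109 in WT. Alas1, the housekeeping counterpart of Alas2, stood at 0.24, with 3687 in KO and 1964 in WT. On the other side of 0, Uros, a step between Alad and Urod, stood at -0.47 and Slc25a38, a mitochondrial glycine carrier, at -0.29. In all, 12 haem and iron genes of the wider list had a median of -0.03, against -0.70 for the 10 listed among the 28, a difference that was not tested. The theta globin gene on the array, Hbq1a, was dim, at 94.6 in KO and 67.0 in WT in P1 liver, and was not detectable in E14 Dlk+ cells.

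Lung epithelial and most endothelial markers were also lower in KO on the P1 liver array. Of 25 lung epithelial markers all were detectable in WT and 17 in KO. Their summed signal above the blank mean was 1232 in KO and 47020 in WT, with Sftpc at 187 in KO and 24038 in WT. Not detectable in KO were Cldn18, Cxcl15, Foxj1, Lamp3, Nkx2-1, Scgb3a2, Sec14l3 and Sftpb. Endothelial markers had a median of -0.67 and 7 of 13 at least 1.5-fold lower, against 4.12% of all genes, with Cldn5 at -2.16 and Egfl7 at -1.54. The summed signal of the endothelial markers was 5394 in KO and 6507 in WT. Cdh5 and Emcn were not detectable in KO. For the 28 erythroid genes the summed signal above the blank mean was 15329 in KO and 16656 in WT, or 0.204% of the signal of all named genes in KO and 0.320% in WT. The part of lung and endothelial RNA in the erythroid ratios was not tested.

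Markers of other blood lineages had medians nearer 0 than the 28 erythroid genes on the P1 liver array, though for macrophage and neutrophil markers not nearer than the -0.14 of the wider erythroid list. Macrophage markers had a median log2 ratio of -0.19 with 0 of 14 at least 1.5-fold lower, which is near the 4.12% of all genes, and their summed signal was 11577 in KO and 8104 in WT. Neutrophil markers had a median of -0.28 with 3 of 12 at least 1.5-fold lower, S100a9 (-0.87), Camp (-0.77) and Lcn2 (-0.75). In the authors' deposited table none of the 12 was, with S100a9 at -0.53, Camp at -0.49 and Lcn2 at -0.56. Megakaryocyte and platelet markers, a lineage that shares Gata1, Tal1 and Nfe2 with red cells, had a median of 0.03 and none of 11 at 1.5-fold in either direction, again near the share of all genes. Cell cycle genes had a median of -0.27 with 17 of 18 below 0. Stellate and fibroblast markers had a median of -0.14 with 4 of 15 at least 2-fold lower, against 1.45% of all genes. Of the hepatocyte and hepatoblast markers, 3 of 14 were at least 1.5-fold higher and 7 lower, where 2.84% of all genes were higher and 4.12% lower. All 7 lower ones were read at the top of the signal range in at least 1 channel, and the 3 higher ones were not. For these 7 the ratio is therefore uncertain. The part of these lists in the erythroid ratios was not tested either. The differences between lists were not tested.

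**Figure D5:**
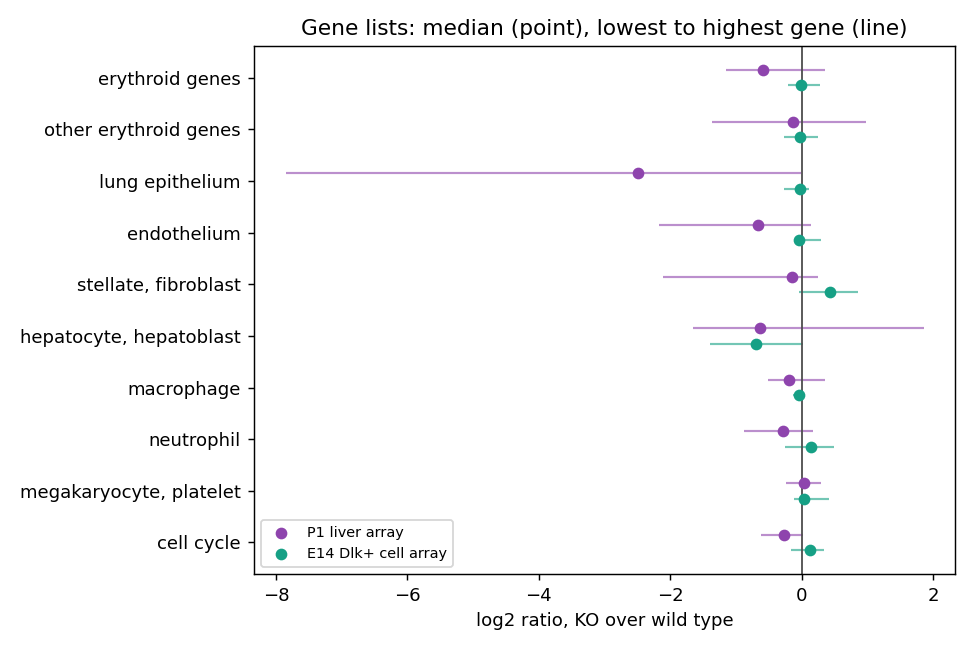
Median log2 ratio of KO over WT (points) and lowest to highest gene (lines) for the erythroid genes and each marker list, P1 liver in purple above E14 Dlk+ cells in green. On the P1 liver array the erythroid median of -0.58 lies near the endothelial median of -0.67, while the lung list reaches -7.85 and the platelet list lies at 0.03.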

How the data were processed

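Each deposited scanner file lists, per the file headers, the median intensities of spots and of their surroundings in both channels, read at several gains and not normalised. The authors' deposited value table holds log2 ratios of KO over WT, per the labels. RNA was amplified and labelled with an amino allyl kit, per the labels' protocols.

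From the intensities, log2 ratios were computed with limma 3.58.1 in R 4.3.3: normexp on the spot signal without local background, offset 50, and within-array loess, to which control spots gave no weight. Values were averaged over spots of a probe, then over probes of a gene. Blank spots were trimmed by 5 percent at each end before the threshold was taken, and 4 quality-flagged probes of the E14 array were left out. Levels between arrays used Aquantile normalisation. Of 23473 probes, 16631 had a gene symbol and 6842 had none in the annotation used, and older symbols were replaced from RefSeq (GRCm38.p6). Genes were counted at 1.5-fold and 2-fold. All 28 measured listed genes are named. Of other lists, the genes named have the largest ratios on an array (up to 4 per erythroid list and 2 per marker list), apart from those chosen after their values were seen: Mmp14, Dlk1, Hbq1a, S100a9, Camp, Lcn2, Pf4, Hmox1, Slc40a1 and genes not detectable. The genes and lists were chosen with earlier results of these data known. The computation was tested on simulated data. Alternatives in background correction, offset, scaling, filters, probes and members are given in the closing section. No genome build is named in the files, so coordinates are given only for RefSeq windows.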

Additional observations from a re-analysis of the deposited data

Results flagged for a closer look

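The haem and iron genes had medians of opposite sign on the arrays, -0.70 in P1 liver and 0.04 in E14 Dlk+ cells, a difference of -0.74 (P1 minus E14). Each array stands for 1 comparison, so this difference was not tested. Of the 10 genes, 9 were below 0 in P1 liver and 5 in E14 Dlk+ cells. The E14 median is smaller than the SD between probes of a gene on that array, 0.12. The change of sign is not particular to these genes. P1 and E14 medians were -1.06 and 0.02 for the carbonic anhydrases and -0.28 and 0.14 for neutrophil markers. They were -0.14 and 0.43 for stellate and fibroblast markers, and -0.27 and 0.12 for cell cycle genes.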

How the results depend on the processing

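No paired analysis was possible because each comparison has 1 array. The median ratio of the 28 genes in P1 liver was below 0 under all 13 alternatives, at -0.83 with no offset, -0.33 with median centring and -0.18 without normalisation, where the median of all genes was 0.20. It stayed at -0.58 without the dim filter, with a stricter blank threshold, with the brightest probe, and without whole-number readings or globins. Those choices altered none of the 28 genes, so they could not move the median. The count at least 1.5-fold lower was 9 with the local background in normexp, 6 with median centring and 3 without normalisation, and the count at least 1.5-fold higher was 1 under each of these (Tfrc) and 3 with the local background subtracted. Blvrb turned to 0.38 with the local background in normexp and 0.41 with it subtracted. In E14 Dlk+ cells the median was 0.61 without normalisation, where that of all genes was 0.82. In E14 Dlk+ cells the count at least 1.5-fold higher was 2 with the local background in normexp and 5 with it subtracted (and 4 lower). It was 1 of 26 in the authors' values, where 686 of all 12728 genes were. With median centring it was 5, where the median of all genes was 0.28, and without normalisation 14. In the last the median of all genes itself lay above the 1.5-fold mark, so that count is not particular to these genes. The share of all genes is not given for the other settings. Their counts, on both arrays, therefore show only how calls depend on the processing and are no result about these genes. For the wider erythroid list the P1 median turned to 0.12 without normalisation, and the E14 median was 0.40 with median centring and 0.93 without normalisation. The cause of these shifts was not tested, apart from the unremoved dye difference in the unnormalised values. Under all 10 alternatives the P1 minus E14 medians stayed above 0, from 0.69 to 1.2 in KO and from 1.40 to 1.65 in WT, and the counts at least 2-fold higher were 12 to 16 in KO and 19 to 21 in WT. A stricter blank threshold, the brightest probe, and leaving out whole-number readings or globins did not change these medians. KO over WT ratios of single genes moved by more than the SD between probes in 81 recomputations in P1 liver, besides the 2 of Blvrb above. They stayed within it in 276. In E14 Dlk+ cells 86 moved by more and 234 did not. For the P1 minus E14 differences 6 moved by more and 263 did not in KO, and 10 did and 249 did not in WT. Filters, the brightest probe and leaving out genes or whole-number readings could not change the value of a single gene here. Their recomputations all count as not moved, so these counts understate how far the values depend on the processing. Leaving out globins changed nothing since none was measured. Dim genes near the blank threshold limit what the E14 array can show.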

Other observations

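Markers of other blood lineages also read higher in P1 liver than in E14 Dlk+ cells. All 12 neutrophil markers detectable in KO on both arrays were at least 2-fold higher in P1 liver, with a median log2 difference of 3.87, and so were all 10 detectable in WT, with a median of 5.02. Of all genes, 6.16% were at least 2-fold higher in KO and 6.52% in WT. S100a9, a granulocyte calcium-binding protein gene, read 18332 in P1 liver and 157 in E14 cells in KO, and 19496 in P1 liver and 52.7 in E14 cells in WT. Platelet markers had medians of 2.0 in KO and 1.94 in WT, with Pf4 at 4.29 in KO and 4.74 in WT. Macrophage markers had medians of 2.20 in KO and 3.59 in WT. Hmox1, which breaks down haem, differed by 3.63 in KO and 3.64 in WT, and the iron exporter gene Slc40a1 by 2.52 in KO and 2.45 in WT. The sort of the E14 cells was set against CD45, a marker of white cells, as well as against erythroid antigens.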
